A study of Drosophila melanogaster with 8 samples.

Results

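RNA polymerase II (RNAPII) sites at retrotransposons of the Pao superfamily were examined in S2 cells, a hemocyte-like embryonic line of Drosophila melanogaster, after knockdown of the linker histone H1. Members were all entries of the deposited site table whose repeat annotation named class LTR and family Pao. They were 239 of 14357 entries (1.66%), which merged by overlap into 147 of 7911 loci (1.86%). The annotation gave them 12 names from 8 elements: DIVER, BEL, ROO, ROOA, BATUMI, MAX, NINJA and DIVER2.

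Pao elements are retrotransposons flanked by long terminal repeats (LTRs). RNAPII starts transcription in one LTR and reads through an internal part that encodes Gag and Pol proteins, and the RNA is reverse transcribed into a DNA copy that inserts elsewhere in the genome. A name ending in _LTR marks the repeat end and one ending in _I the internal part. H1 binds the linker DNA between nucleosomes and is known in flies for its part in heterochromatin structure and in the silencing of transposons.

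The H1 knockdown cells (labelled KD H1) gave 2 RNAPII precipitations and 2 input libraries, and so did the control cells, labelled LacZ after a bacterial gene absent from flies. How H1 was depleted is not stated in the labels. All 8 libraries came from the same cell line, and inputs were taken at 10% of the chromatin. Whether the 2 libraries of a condition were grown apart is not stated in the labels. P-values of the authors thus cover only the spread between these libraries, which may be technical. Per condition the files hold 1 mean log2 concentration a site, the log2 mean read concentration that DiffBind gives, and 1 pooled peak list. Depth and values of single libraries are therefore not known here, and no error of a mean can be given. Each fold is a difference of log2 concentrations, H1 knockdown minus LacZ. Folds and p-values are throughout those of the authors' deposited table, and positions are in dm3. Of 12 markers of hemocyte-like cells, 10 had a site within 1000 bp of the transcription start site (TSS), against 1 of 4 for neurons, muscle and germline, 1 of 2 for ovarian somatic cells and 0 of 3 for fat body.

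RNAPII concentration at Pao loci was close to equal in H1 knockdown and LacZ cells, with a small displacement below 0. The median log2 concentration was 7.93 in H1 knockdown cells and 8.0 in LacZ cells. The median fold of the 147 loci in the authors' deposited table was -0.05, with quartiles at -0.09 and 0.00 and extremes at -0.33 and 0.49. Folds were below 0 at 107 loci (72.8%), at 0 at 6 and above 0 at 34. Over all 7911 loci the median fold was 0.08, and 29.7% lay below 0 and 68.2% above it. Counted by entry, 172 of 239 Pao entries lay below 0, against 29.6% of all entries. The scaling of the libraries is not stated, so 0 is not a fixed baseline. In bulk chromatin, a change in the number of cells with RNAPII at a site and a change per cell cannot be told apart.

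By DiffBind, no Pao entry passed a false discovery rate (FDR) of 0.05 in either direction, and neither did any of all 14357 entries (0%). In the authors' deposited table the FDR was 1 at every Pao entry. Their own calls, made at an unadjusted p under 0.05, marked 4 Pao entries at 3 loci as higher in H1 knockdown cells and 0 as lower. Over the whole table these calls marked 3.99% of entries (5.09% of loci) as higher and 0.0557% of entries (0.101% of loci) as lower. The count at Pao loci was thus below the share called over all sites, which include promoter loci with 6.7% called higher. The 3 loci were 2 of BATUMI and 1 of MAX. None of the 136 loci of the 4 common elements was called, against 3 of the 11 loci of the 4 rare ones.

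Of the other retrotransposon classes, Gypsy and LINE had median folds near that of Pao, and Copia had a median at 0. Gypsy loci, of the most numerous LTR class here, had a median fold of -0.05 over 1534 loci in the authors' deposited table. Copia loci had 0.00 over 346 loci, and LINE elements, which lack LTRs, had -0.07 over 389. Folds were below 0 at 71.1% of Gypsy, 49.4% of Copia and 69.2% of LINE loci, against 72.8% of Pao loci. The authors called 11 of the Gypsy, 2 of the Copia and 4 of the LINE loci higher, and 3, 0 and 2 lower. Each of these shares called higher was smaller than that of Pao loci (3 of 147), on small counts. The median log2 concentration over both conditions was 7.96 at Pao loci, against 7.87 at LINE loci, 8.02 at Gypsy loci, 8.37 at Copia loci and 8.26 over all loci.

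DIVER, BEL, ROO and ROOA made up 136 of the loci, and each had a median fold between -0.06 and -0.01 in the authors' deposited table. DIVER was the most frequent, with 53 loci on 9 chromosomes and scaffolds and a median log2 concentration of 8.01 in H1 knockdown cells and 8.10 in LacZ cells. Its median fold was -0.06, with 42 loci below 0, 9 above and a range of -0.26 to 0.12. BEL had 39 loci and the highest median log2 concentration of the common elements, 8.41 in H1 knockdown cells and 8.51 in LacZ cells. Median peak enrichment over input was 2.44 for BEL and 2.32 for ROO in the knockdown list, and 1.80 and 2.27 in the LacZ list. BEL folds had a median of -0.04 and ranged from -0.29 to 0.25, with 29 loci below 0 and 9 above. ROO, one of the most abundant retrotransposons of this species, had 32 loci of lower concentration, with medians of 7.26 in H1 knockdown cells and 7.35 in LacZ cells. The median ROO fold was -0.05, from -0.23 to 0.14, with 25 loci below 0 and 6 above. ROOA, a relative of ROO, had 12 loci, all of the internal part, with a median fold of -0.01 and a range of -0.31 to 0.15.

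**Figure D1:**
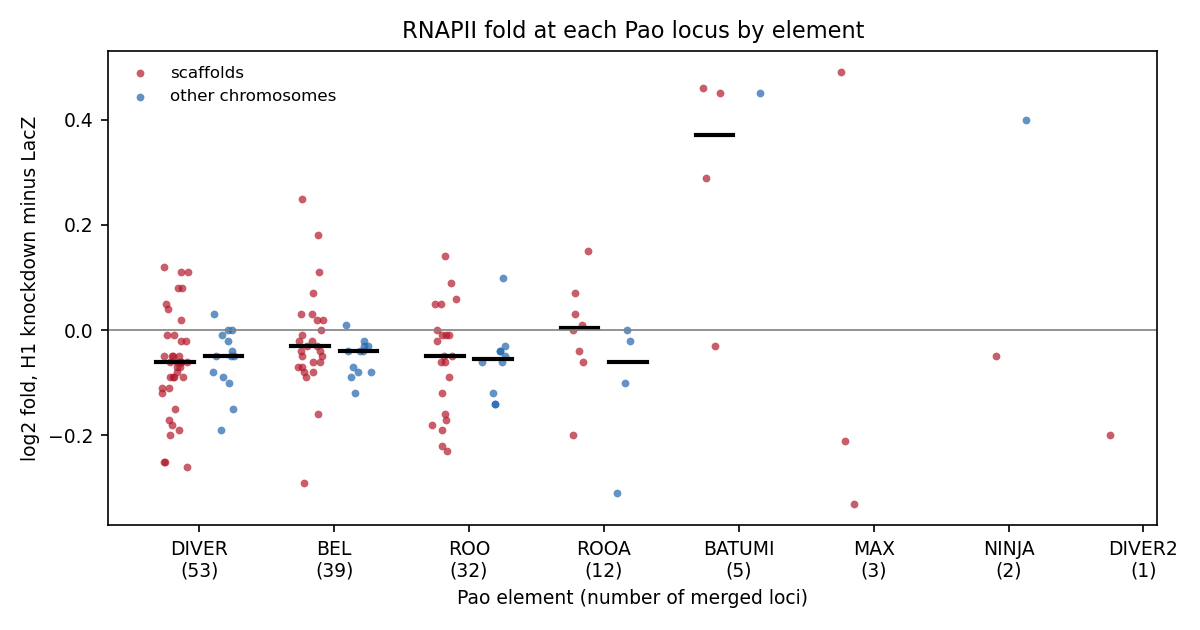
Log2 fold (H1 knockdown minus LacZ, authors' deposited table) of each of the 147 merged Pao loci by element, with loci on scaffolds to the left and on other chromosomes to the right of each position. Black bars are medians where 4 or more loci were present. DIVER, BEL, ROO and ROOA cluster just below 0, while 4 of 5 BATUMI loci lie at 0.29 or above, 3 of them in 1 group on 2RHet.

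BATUMI had the highest median fold among the elements with at least 5 loci, 0.45 in the authors' deposited table. Of its 5 loci 4 were above 0, but 3 of these form 1 group on 2RHet and are not separate places. The broadest BATUMI site lay on 2L from 21542777 to 21545660, 2884 bp wide, the widest of all Pao loci. The log2 concentration there was 11.24 in H1 knockdown cells and 10.79 in LacZ cells, the highest of any Pao locus in both conditions. The authors' deposited table gave a fold of 0.45 (1.37-fold on a linear scale) with an unadjusted p of 0.0321. The overlapping entry from the LacZ peak list had a fold of 0.42 and an unadjusted p of 0.0441 there, so these 2 of the 4 called entries describe 1 place.

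That BATUMI site lies next to the histone gene array, in which the replication-dependent histone genes are repeated many times, and 5990 bp from the TSS named for it, of the His2A copy His2A:CG33832. Within 50 kb, 11 histone promoter loci all had folds above 0 in the authors' deposited table, from 0.10 to 0.36, and 2 of them were called higher. Over all promoter loci 93.9% had a fold above 0 and 6.7% were called higher. A further 3 intergenic loci with a histone gene as the gene named had folds of 0.07 to 0.25. The one of 0.25 (21553170 to 21554305) lay on the side of the BATUMI site away from the array. Farther out on that side, 11 loci at or near Lamp1 and nompB had a median fold of -0.13, from -0.29 to 0.32. Of the 11, 3 were above 0, and these were the 3 nearest to the BATUMI site. Histone copies share sequence, so the 11 promoter loci are not independent readings.

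The remaining BATUMI loci with folds above 0 formed 1 group of 3 on the scaffold 2RHet. An internal site from 337676 to 338498 had a log2 concentration of 8.56 in H1 knockdown cells and 8.10 in LacZ cells. Its fold of 0.46 had the smallest p of all Pao entries in the authors' deposited table, 0.0134 unadjusted. A BATUMI LTR site 1.20 kb to one side (336879 to 337172) had 7.26 in H1 knockdown cells and 6.82 in LacZ cells, a fold of 0.45 and an unadjusted p of 0.0534 in the authors' deposited table. A second LTR site 3.06 kb to the other side (341173 to 341453) had 7.31 in H1 knockdown cells and 7.02 in LacZ cells, a fold of 0.29 and an unadjusted p of 0.205. Both LTR sites had a peak in the knockdown list only. The locus of the internal site also held a LacZ peak that the authors annotated to another repeat, DNAREP1_DM, with a fold of 0.37 and an unadjusted p of 0.0697 in their deposited table.

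Other repeat loci around the 2RHet group had folds below 0. Within 50 kb, 7 other repeat loci, of ACCORD, Gypsy, DOC, BLOOD and Gypsy4 elements, had folds between -0.13 and -0.04 in the authors' deposited table. The promoter of CG40191, the gene named for these loci, had a fold of 0.36 and an unadjusted p of 0.0333 there, at a TSS 52686 bp from the internal BATUMI site. The fifth BATUMI locus lay on 3LHet (847653 to 847943), with a log2 concentration of 7.07 in H1 knockdown cells and 7.10 in LacZ cells, a fold of -0.03 and an unadjusted p of 0.899 in the authors' deposited table.

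**Figure D2:**
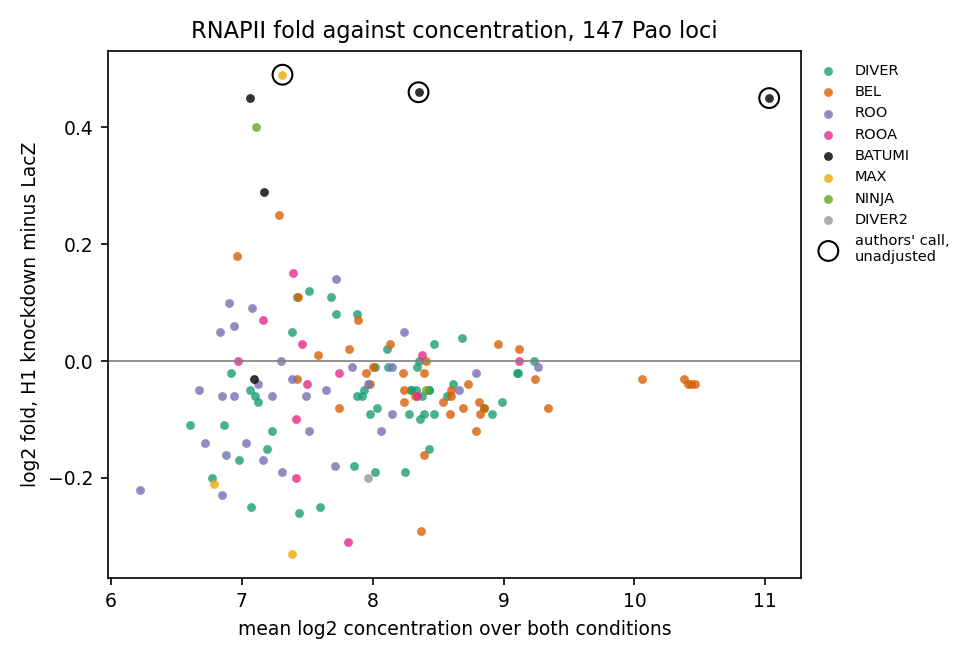
Log2 fold against the mean log2 concentration over both conditions for the 147 Pao loci, coloured by element, with the 3 loci called by the authors ringed. Folds spread widely below a concentration of 8, and the loci above 10 lie near 0 except BATUMI on 2L at 0.45.

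The other rare elements pointed in both directions. MAX had 3 loci, all internal and all on scaffolds. One on Uextra (7624433 to 7624821) had a log2 concentration of 7.54 in H1 knockdown cells and 7.05 in LacZ cells and a peak in the knockdown list only. Its fold of 0.49, the highest of all Pao loci, had an unadjusted p of 0.0354 there (the authors' deposited table). On 3RHet the locus from 193564 to 193955 had 7.21 in H1 knockdown cells and 7.54 in LacZ cells, with the lowest fold of all Pao loci, -0.33, and an unadjusted p of 0.111 there. Its neighbour on the same scaffold (379960 to 380254) had a fold of -0.21 and an unadjusted p of 0.397 in the authors' deposited table, and both 3RHet loci had peaks in the LacZ list only.

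NINJA had 2 loci, both of the LTR. The first lay on 2R (1225929 to 1226240), 2416 bp from the TSS of CG10465, with 7.30 in H1 knockdown cells and 6.90 in LacZ cells, and its fold was 0.40 with an unadjusted p of 0.108 in the authors' deposited table. The other, on U, had 8.39 in H1 knockdown cells and 8.43 in LacZ cells and a fold of -0.05. The single DIVER2 locus, on Uextra, had 7.86 in H1 knockdown cells and 8.05 in LacZ cells and a fold of -0.20 with an unadjusted p of 0.253.

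Loci of the LTR and of the internal part were set side by side, since the LTR holds the start of transcription. The 26 LTR loci had a median fold of -0.005, with 11 above 0 and 13 below. The 121 internal loci had a median of -0.05, with 23 above 0 and 94 below, all in the authors' deposited table. At 3 loci the name was internal in one list and LTR in the other, and they count here as internal, the name of the entry of highest concentration. Without them the internal median was still -0.05, over 118 loci. The gap was seen within BEL on Uextra, where 10 LTR loci had a median of 0.01 and 12 internal loci -0.055. It was also seen within DIVER on scaffolds, where 4 LTR loci had a median of 0.035 and 35 internal loci -0.07. On other chromosomes it was not seen within DIVER. The DIVER LTR loci there had folds of 0.00 and -0.15, against a median of -0.05 over all DIVER loci there. Over all places the DIVER medians were -0.005 for 6 LTR loci and -0.06 for 47 internal loci. ROO ran the other way, with a median of -0.125 over 6 LTR loci and -0.045 over 26 internal ones. No test of these differences was made, because the files used give no values per library and copies of an element share sequence.

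Scaffolds held most of the Pao loci. They are either heterochromatin assigned to a chromosome (names ending in Het) or sequences of unknown place (U and Uextra), which need not be heterochromatin. Of the 147 loci, 105 (71.4%) lay on scaffolds, against 32.2% of all loci, and U and Uextra alone held 75. The median fold was -0.05 on scaffolds and -0.045 on the other chromosomes, in the authors' deposited table. On scaffolds 73 loci lay below 0, 3 at 0 and 29 above, and on the other chromosomes 34 lay below, 3 at 0 and 5 above. Over all loci these medians were -0.02 on scaffolds and 0.13 elsewhere.

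Single chromosomes and scaffolds with 7 or more Pao loci differed little in their medians. The lowest was -0.08, on 3L (9 loci, all below 0). The highest was -0.02, on 2RHet (14 loci, 6 above 0) and 3LHet (7 loci, 2 above 0). Those with fewer loci had -0.09 on 2LHet (5 loci) and, with 2 loci each, -0.27 on 3RHet, -0.14 on 3R and -0.04 on XHet. Uextra (52 loci) and U (23 loci) both had -0.05. The X had 13 loci with a median of -0.04, 2R had 11 with -0.04 and 2L had 7 with -0.05. The 7 loci within 1 Mb of the centromeric ends of the arms had a median of -0.10 and none above 0. By annotated feature, 67 loci were intronic, with a median fold of -0.05, and 80 intergenic, with a median of -0.04. The annotation gives repeat names only to sites in introns and between genes, so no other feature was possible. Reads of U and Uextra can belong to copies elsewhere, and the handling of reads with several matches is not stated.

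The lowest folds by p on scaffolds were led by a BEL internal site on 2LHet (202306 to 202931), with 8.22 in H1 knockdown cells and 8.51 in LacZ cells. The authors' deposited table gave it a fold of -0.29 and an unadjusted p of 0.0758. A DIVER internal site on 2RHet (592203 to 592610) followed the MAX locus of 3RHet, with 7.47 in H1 knockdown cells, 7.72 in LacZ cells, a fold of -0.25 and an unadjusted p of 0.182. On the other chromosomes the lowest was a ROOA site on 2L (22980425 to 22981036), 1 of 4 ROOA loci in a row, with 7.65 in H1 knockdown cells and 7.96 in LacZ cells. Its fold was -0.31 with an unadjusted p of 0.0788 in the authors' deposited table, while its 3 neighbours, within 2128 bp, had folds of -0.10, -0.02 and 0.00.

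A DIVER site annotated as intronic lay on 3R (12584821 to 12585171), nearest to lncRNA:bxd, a noncoding RNA gene of the bithorax complex. It had 8.15 in H1 knockdown cells and 8.35 in LacZ cells, and a fold of -0.19 with an unadjusted p of 0.233 in the authors' deposited table. A BEL site on X (22374519 to 22375341) had a fold of -0.12 with an unadjusted p of 0.449. Among the sites with folds above 0 on the other chromosomes, the third by p was a ROO site on X (10584640 to 10584905) annotated as intronic, nearest to CG12637, with a fold of 0.10 and an unadjusted p of 0.666.

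Apart from BATUMI on 2L, the highest log2 concentrations were those of 5 BEL internal loci. All 5 had at least 10, a cut chosen after the values were seen. They lay on 2R near GEFmeso (14463639 to 14465052), on 2RHet (685615 to 687082), on 3L (22093385 to 22094536), on X near CG32816 (322808 to 324206) and on X near CG14269 (3313539 to 3314955). GEFmeso encodes a guanine nucleotide exchange factor. Log2 concentrations at the 5 loci were 10.04 to 10.44 in H1 knockdown cells and 10.07 to 10.48 in LacZ cells. Folds were -0.04 to -0.03 in the authors' deposited table, with no p below 0.756. The other 24 BEL internal loci reached at most 9.34. The 5 sites were 1152 to 1468 bp wide, against a median of 458 bp for those 24. In the knockdown list the peaks of the 5 sites had an enrichment over input of 4.29 to 4.59. DIVER peaks of that list reached 5.56, so the 5 BEL sites did not lead by enrichment.

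Beside 4 of these 5 BEL sites lay a second BEL internal locus of lower concentration, with its summit 3233 to 3936 bp away. These 4 companions had log2 concentrations of 8.65 to 8.81 in H1 knockdown cells and 8.73 to 8.89 in LacZ cells. Their folds were -0.09 to -0.07 in the authors' deposited table, and all 4 had a peak in the LacZ list only. Those peaks had an enrichment over input of only 1.19 to 1.27, against a median of 3.03 over all peaks of that list. A pair of higher and lower concentration thus recurred at separate places of the genome, with nearly the same concentrations in both conditions. Copies of one element share sequence, so the 4 pairs do not count as 4 observations.

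DIVER showed a repeated spacing too. In 3 of its groups, on 2R from 4665507, on 2R near dnr1 from 18467972 and on XHet from 35016, 2 sites lay 5796 to 5811 bp apart. In 2 of these 3 groups 1 of the sites was an LTR site. In the group on 2R from 4665507 the site of lower concentration was named internal in the knockdown list and LTR in the LacZ list. dnr1 encodes an inhibitor in the immune deficiency pathway. The site of lower concentration in each of these 3 pairs had 8.35 to 8.59 in H1 knockdown cells and 8.35 to 8.63 in LacZ cells. Folds there were -0.06 to 0.00 in the authors' deposited table. By peak enrichment over input, that site was the lower one on 2R from 4665507 and on XHet in both lists. Near dnr1 it was the higher one in both lists, with 4.29 against 1.13 in the LacZ list. Over all elements, neighbouring loci of 1 element joined at gaps of at most 10000 bp formed 21 groups of 48 loci, and 99 loci stood alone. The largest groups had 4 loci, of ROO on U, with folds of -0.18 to -0.05, and of ROOA on 2L.

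**Figure D3:**
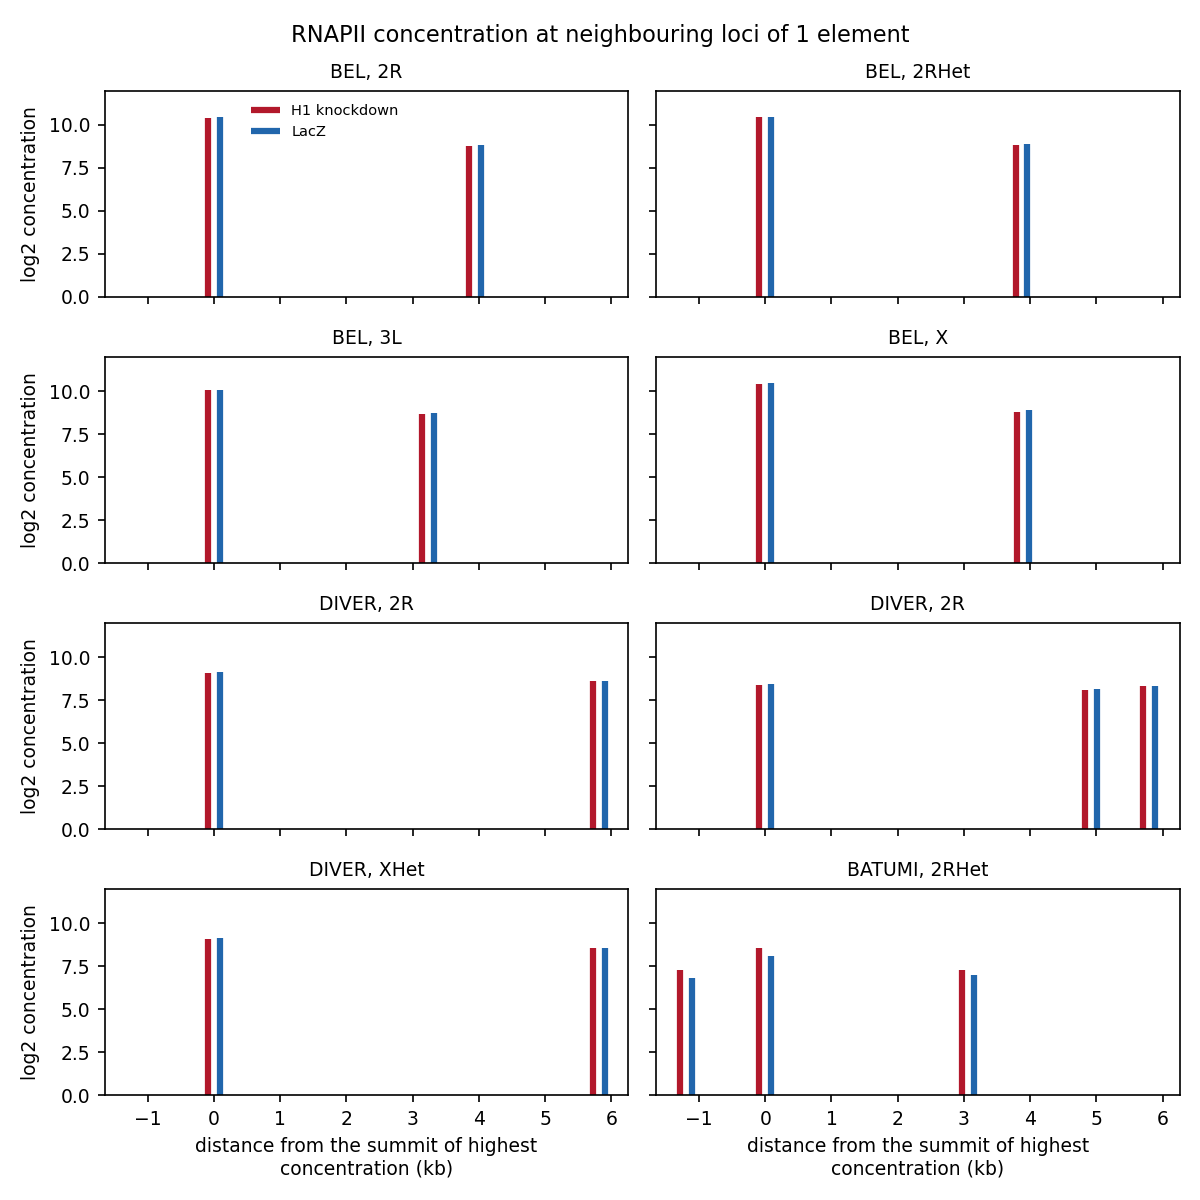
Log2 concentration in H1 knockdown (red, left) and LacZ cells (blue, right) at neighbouring loci of 1 element, by distance in kb from the summit of highest concentration, turned so that the farthest locus lies to the right. In 4 BEL groups a site above 10 has a companion below 9 about 3 to 4 kb away, the 3 DIVER groups have sites 5796 to 5811 bp apart, and in the BATUMI group the H1 knockdown bars are the higher ones.

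Folds of Pao loci depended little on level, but their spread did. The 71 loci with a log2 concentration of at least 8 had a median fold of -0.05 with quartiles at -0.08 and -0.01. The 76 loci under 8 had the same median with quartiles at -0.14 and 0.0525. Across the 147 loci Spearman's rho between concentration and the size of the fold was -0.36, and over all 7911 loci -0.30. With the signed fold it was 0.06 over Pao loci. Loci are not replicates, and both measures come from the same libraries.

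The annotation names a gene for most loci at any distance, and for 20 of these genes the promoter had a site of its own on the same chromosome or scaffold. The Pao locus had a lower fold than the promoter in 16 of the 20 (80.0%), with a median of -0.05 at the Pao loci and 0.085 at the promoters, from the authors' deposited table. Of the 20, 2 ribosomal RNA genes share 1 promoter locus, and with each promoter locus counted once the count was 16 of 19 (84.2%). Most pairs are far apart. For 7 genes the Pao locus lay within 10 kb of the TSS, and in 5 of those (71.4%) its fold was the lower one. On the chromosomes other than scaffolds there were 9 genes, with the promoter above 0 in 8 of them and the Pao locus above 0 in none. Of all promoter loci on those chromosomes 94.0% had a fold above 0, so the promoters of genes named for Pao loci were near the general share. Of all 42 Pao loci there, 5 (11.9%) were above 0. The lower Pao fold in most pairs thus says little beyond these general shares.

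The 12 genes outside U and Uextra are all given, a choice made with their values in view. At CG32816 the BEL site 1223 bp away had a fold of -0.03, and the promoter one of 0.43 that the authors called (unadjusted p of 0.0421 in their deposited table). At Set1 on 3LHet, which encodes a histone H3 lysine methyltransferase, 3 ROO loci at 17237 to 59299 bp had folds of -0.02, -0.01 and 0.14, while the promoter had 0.45 and was called (unadjusted p of 0.0294 in the authors' deposited table). At dnr1, 3 DIVER loci at 6621 to 12281 bp had folds of -0.05, -0.01 and 0.00, and the promoter had 0.12. Folds of GEFmeso were -0.04 and -0.07 at its BEL loci, 6477 and 2157 bp from the TSS, and 0.01 at its promoter.

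Svil, which encodes an actin-binding protein of the villin family, had -0.03 at a ROO locus 8617 bp away and 0.11 at its promoter in the authors' deposited table. Pld, which encodes phospholipase D, had -0.06 and -0.14 at ROO loci 49248 and 61442 bp away and 0.12 at its promoter. ND-MLRQ, a subunit gene of mitochondrial complex I, had -0.15 at a DIVER LTR locus 77622 bp away and 0.21 at its promoter. CG40228 had -0.17 at a ROO LTR locus 53570 bp away and 0.39 at its promoter. lncRNA:CR45082 had -0.04 at a ROO locus 5379 bp away and 0.06 at its promoter. The promoter of lncRNA:CR43242 had 0.27, and the 4 ROOA loci of 2L lie 16997 to 20884 bp from it. At CG4597 the BEL locus, 9234 bp away, had the higher fold, -0.08, against -0.20 at the promoter. At CG40191 the BATUMI internal site, 52686 bp away, had 0.46, against 0.36 at the promoter. The authors called 3 of these 12 promoters higher, against 6.7% of all promoter loci.

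**Figure D4:**
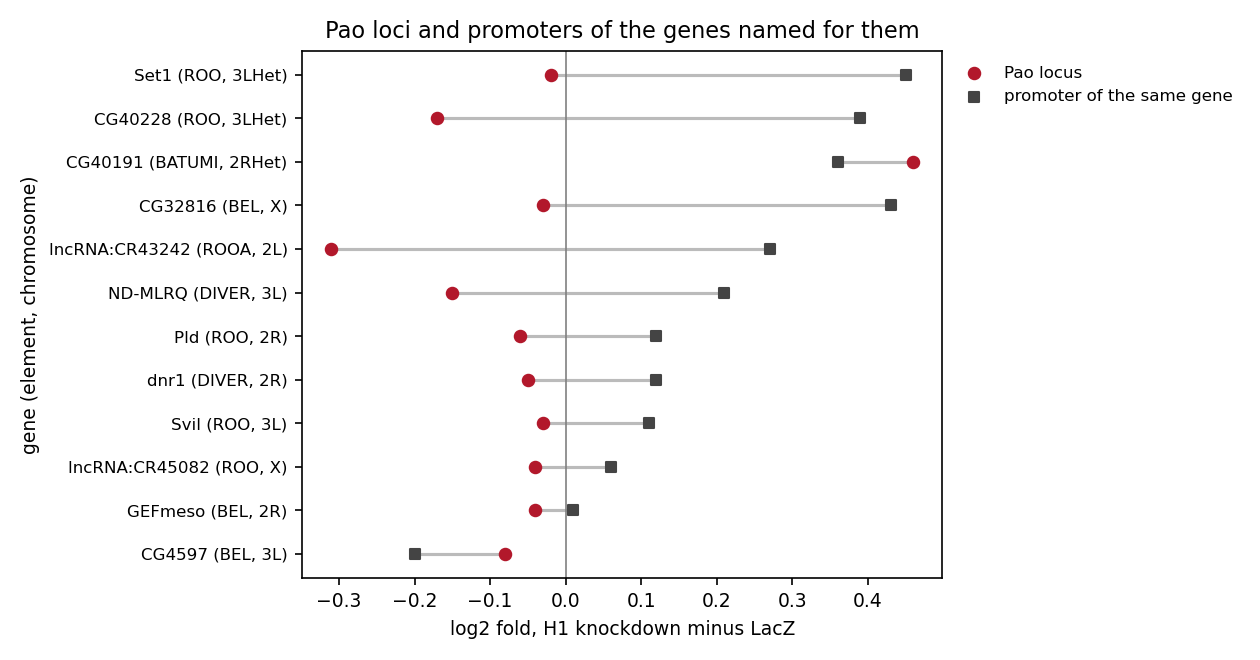
Log2 fold (H1 knockdown minus LacZ, authors' deposited table) of the Pao locus of highest concentration (red circle) and of the promoter (grey square) for the 12 genes outside U and Uextra, with scaffold genes above. The Pao fold is the lower one in 10 of 12 genes, and the exceptions are CG40191 and CG4597.

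Each locus had a peak in the H1 knockdown list, in the LacZ list or in both, which describes where the pooled libraries passed the peak threshold. Of the 147 loci, 20 (13.6%) had a peak in the H1 knockdown list only, 31 (21.1%) in the LacZ list only and 96 (65.3%) in both. Over all loci these shares were 14.9%, 5.99% and 79.1%. The LacZ-only share over all loci differed by place, and Pao loci lay more often on scaffolds. On scaffolds it was 20.0% of Pao loci against 11.0% of all loci. On other chromosomes it was 23.8% of Pao loci against 3.61% of all loci. Gypsy loci had 8.54%, 10.8% and 80.7% in the same order, Copia loci 4.62%, 4.62% and 90.8%, and LINE loci 11.6%, 26.0% and 62.5%. No test was made, since each list pools the libraries of its condition. Among loci above the lower quartile of all concentrations (7.62), 6.52% of Pao loci were in the knockdown list only and 15.2% in the LacZ list only, against 5.26% and 2.30% of all loci. Below that level lay 55 Pao loci (37.4%).

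**Figure D5:**
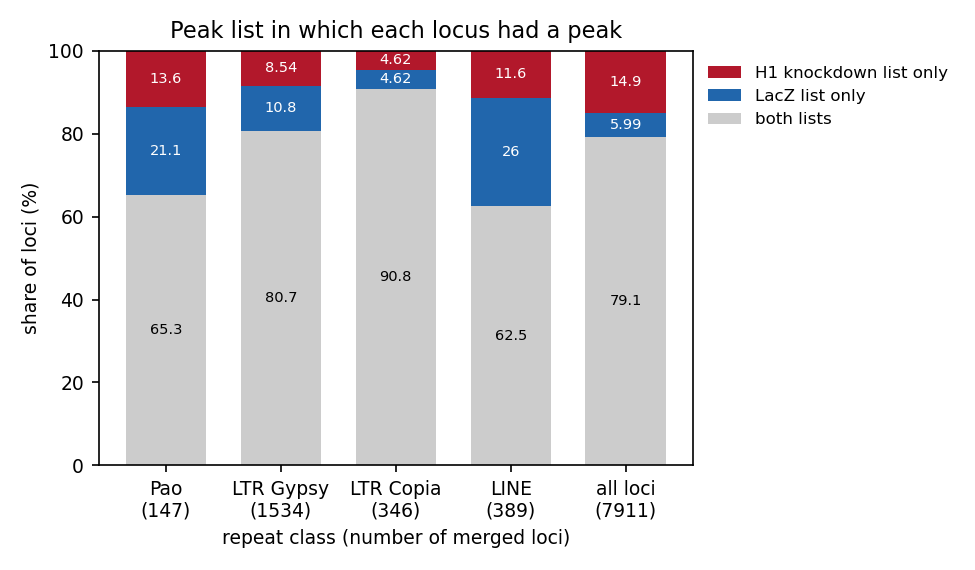
Share of merged loci with a peak in the H1 knockdown list only (red), the LacZ list only (blue) or both lists (grey) for Pao, other retrotransposon classes and all loci. The LacZ-only share of Pao loci is 21.1%, between LINE (26.0%) and Gypsy (10.8%), and that of all loci is 5.99%.

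By element, DIVER had 7 loci in the knockdown list only and 12 in the LacZ list only, BEL 1 and 8, ROO 5 and 6, and ROOA 3 and 2. The 20 loci of the knockdown list only had a median fold of 0.015 in the authors' deposited table, and the 31 of the LacZ list only had -0.14, all below 0. List and fold come from the same libraries, so the sign of those 31 is largely fixed by how they were picked.

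Within each peak list, Pao peaks ranked low. Fold enrichment over input is the authors' own value per peak and is read only within a list. In the knockdown list 115 Pao peaks had a median enrichment of 2.12 and a median rank 20.9% from the bottom, and all 7472 peaks had 3.64. In the LacZ list 124 Pao peaks had a median of 1.81 and a rank of 16.6%, and all 6885 peaks had 3.03. The BATUMI site on 2L led the Pao peaks of the knockdown list with 15.2. In the LacZ list a DIVER LTR peak led with 4.29.

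Genes of RNA interference, the piRNA pathway and heterochromatin were listed to place the Pao loci beside pathways that include transposon silencing. The list had 34 genes and was not limited to transposon silencing. Of these, 19 had a site within 1000 bp of their TSS, with a median fold of 0.24 and 18 above 0 in the authors' deposited table, all on chromosomes other than scaffolds. All loci on those chromosomes had a median of 0.13 with 81.8% above 0, and promoter loci there 0.16 with 94.0%. The authors called 1 of the 19 higher and 0 lower, a share near the 5.09% of all loci called higher, and none passed an FDR of 0.05. That gene was Dcr-1, which makes microRNAs, with 7.77 in H1 knockdown cells and 7.35 in LacZ cells, a fold of 0.42 and an unadjusted p of 0.0283 in the authors' deposited table. Dcr-2, which cuts double-stranded RNA into small interfering RNAs, had 8.06 in H1 knockdown cells and 7.72 in LacZ cells, a fold of 0.34 and an unadjusted p of 0.071. The piRNA cluster factors del and rhi had folds of 0.31 and 0.27, and AGO2, which carries small interfering RNAs, had 0.23. RNAPII at a gene does not measure its protein or the silencing of Pao elements.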

How the data were processed

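RNAPII ChIP and input libraries of S2 cells were measured. Per the submitters' processing notes, the tools were Bowtie2 2.2.2 (build dm3), DESeq2, DiffBind 2.10.0 and MACS 1.4.2. MACS2 stands in the peak and column names, which leaves the caller's version unsettled. Sites were annotated with Homer, per the file headers. Settings, library scaling and the treatment of reads with several matches are not given in the sources used here.

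The authors deposited log2 concentrations (mean and per condition) and their log2 fold, which equals the difference of both concentrations to within 0.01. The authors' p-value and FDR were copied, and their FDR matched a Benjamini-Hochberg adjustment over 14357 entries to within 0.00229. The deposited peak lists hold an integer score, the −log10 of q and of p, and the enrichment over input as a ratio (fold enrichment). The deposited table repeats these and adds a pileup signal, which was not used here, and neither were the score and the −log10 p. The lists, of 7472 knockdown and 6885 LacZ peaks called on pooled libraries per the peak names, hold the same peaks as the table.

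Loci were made by joining entries that shared 1 bp or more, a step tested on simulated data. A Pao locus was represented by its Pao entry of highest mean concentration, which was the highest of all its entries in 146 of 147. Files hold no values per library, so no fit, spread or depth was computed. Sites named were the entries the authors called, the 3 loci of smallest p per direction and of highest concentration on scaffolds and on other chromosomes, the widest locus, and genes within 10 kb or for an intron. Of the RNA interference, piRNA and heterochromatin list, the 4 genes of smallest p were to be named. AGO2 was added after its value was seen. Members, lists and tests were chosen with earlier results of these data known. Gene symbols were paired through a Release 6 table, of which no coordinates were used. Software was pandas 2.3.3, numpy 2.4.6, matplotlib 3.10.9 and scipy 1.17.1 under Python 3.11.15.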

Additional observations from a re-analysis of the deposited data

How the results depend on the processing

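No Pao entry passed an FDR of 0.05, 0.1 or 0.2, and the authors' unadjusted calls gave 4. The median fold of -0.05 lay between -0.05 and -0.03 under the 9 alternatives that kept the deposited scale (entries, mean or widest entry per locus, stricter overlap, low concentration or U and Uextra left out, enrichment of at least 2, BATUMI or loci of 1 list left out). After subtraction of the median of all loci it was -0.13, by construction. The difference of -0.005 between scaffolds and other chromosomes lay between -0.01 and 0.01. It was 0.01 without U and Uextra and also 0.01 without loci of 1 list only, so it has no settled sign. The median concentration of 7.96 was 8.19 without U and Uextra. Of the element medians, BATUMI had 0.37 on scaffolds only against 0.45, and ROOA had 0.005 on scaffolds only against -0.01, and for all of these the cause was not tested. DIVER, BEL and ROO medians stayed within -0.06 and -0.03. The LacZ-only share lay between 15.2% and 21.1%, and the share of genes with the lower Pao fold, 80.0%, lay between 71.4% (within 10 kb) and 84.2% (each promoter locus counted once).

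The calls at unadjusted p (4), the settings without BATUMI or without loci of 1 list only, and the peak-list share above the lower quartile of concentration (15.2%), each promoter locus counted once, genes without U and Uextra (83.3%) and the part medians without loci of mixed name were chosen after seeing the data. No paired analysis was possible because values of single libraries are not in the files analysed, and for the same reason no library was left out. Depth is not known here, and sites of low concentration had the widest folds. Copies of an element share sequence, and loci are not independent.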
